A study of Mus musculus with 9 samples.

Results

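The genes described here encode the vacuolar proton pump (V-ATPase), the transcription factors of the TFEB family and the proteins that control mTORC1 on the lysosome. They were picked by name from what their products do, by a rule that uses no measured value but was written with earlier results of these data known, and number 40 of the 54432 genes in the count table. The set holds 8 genes of the V1 sector of the pump, 8 of the V0 sector, 2 of accessory subunits, 3 of the TFEB family, 1 of a lysosomal calcium channel, 3 of the folliculin complex, 8 of the Rag GTPases and Ragulator, and 7 of mTORC1 and its regulators. All 40 were found, and 38 of them passed the filter of more than 10 counts in at least 3 libraries, as did 12637 genes in all.

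RAW264.7 cells, a macrophage-like line from mouse, were profiled by RNA sequencing to ask how lipid particles of either size change gene expression. There were 3 groups of 3 libraries: control cells, cells given VLDL-sized emulsion particles at 1 mM and cells given chylomicron-sized (CHYL-sized) emulsion particles at 1 mM, the last 2 groups for 6 hours. Both emulsions were made of sunflower oil with caseinate as the emulsifier, and the control cells were labelled as untreated, so the lipid and the emulsifier of the particles cannot be told apart. Each library was a pool of the samples that one experiment gave for one condition, so the replicate spread is that between pools of a single cell line.

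The libraries held 22393893 to 22856792 estimated counts. Replicate 3 stood apart within each group: its counts differed from those of replicates 1 and 2 by a chi-square per degree of freedom of 12 to 15.1, against 3.39 to 5.03 between replicates 1 and 2. All 10 macrophage markers checked were detected, with summed levels of 6946 to 7024 cpm (counts scaled to a common library total, with TMM normalization) in control, 6197 to 6395 cpm with VLDL-sized and 6369 to 6585 cpm with CHYL-sized particles. Of these, 6 were lower and 1 higher with VLDL-sized particles (against 17.9% and 17.8% of all genes). With CHYL-sized particles 3 were lower and 0 higher (against 13% and 12.7%). The falls were led by *Fcgr1*, an Fc receptor (log2 fold changes -0.83 and -0.68, adjusted p = 8e-05 and 0.00044), and *Cd14*, the lipopolysaccharide co-receptor (-0.54 and -0.47, adjusted p = 3.7e-05 and 0.00016). The marker that rose was *Cd68* (0.17 with VLDL-sized particles, adjusted p = 0.028, and 0.13 with CHYL-sized particles, adjusted p = 0.089). *Csf1r*, *Adgre1* and *Mertk* passed no test. Of 13 markers of other cell types, 10 had at most 4 counts in every library, *Epcam*, *Hbb-bs* and *Alb* were at 0, and the 3 that could be tested passed no test. Their summed level was 3.33 to 4.71 cpm over the 9 libraries. The part of this marker shift in the results was not tested, and in bulk RNA fewer cells and less RNA per cell cannot be told apart.

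The V-ATPase uses ATP to pump protons into the lysosome, which keeps its hydrolases active. Its V1 sector on the cytosolic side splits ATP, and its V0 sector in the membrane carries the protons. When amino acids are plentiful, the Ragulator and the Rag GTPases hold mTORC1 on the lysosomal surface, where mTORC1 keeps TFEB and TFE3 phosphorylated and out of the nucleus, and when mTORC1 is released these factors enter the nucleus and turn on genes of the lysosome, the V-ATPase among them. In macrophages this system is known for handling engulfed material, and the TFEB family was first linked to lysosomal genes through a short promoter element.

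With VLDL-sized particles 18 of the 38 tested genes rose and 4 fell relative to control, at an adjusted p under 0.05 in limma-voom. That is 47.4% higher and 10.5% lower, where over all 12637 genes 17.8% were higher and 17.9% were lower. With CHYL-sized particles 14 rose and 2 fell, that is 36.8% and 5.26%, where over all genes 12.7% were higher and 13% were lower. In all, 22 and 16 genes were called, where 35.6% and 25.7% of all genes were. The treated libraries did not overlap with control for 24 of the 38 genes (63.2%, against 47.4% of all genes) with VLDL-sized and for 21 (55.3%, against 41.7%) with CHYL-sized particles. The median log2 fold change of the 38 genes was 0.14 with VLDL-sized and 0.11 with CHYL-sized particles, against -0.0003 and 0.0013 over all genes. Both comparisons share the same 3 control libraries. When libraries were scaled by their size alone, which lowered the median of all genes to -0.0935 and -0.0788, the counts became 13 higher and 5 lower with VLDL-sized, and 9 higher and 6 lower with CHYL-sized particles, so that the share of higher genes among those called went from 87.5% to 60% for the latter. Over all genes this scaling called 11.9% higher and 26.2% lower with VLDL-sized, and 8.45% higher and 19.9% lower with CHYL-sized particles. With the replicate number as a block 20 of the 38 genes were higher and 4 lower with VLDL-sized particles (24.1% and 23.9% of all genes), and 19 higher and 3 lower with CHYL-sized particles (19.5% and 19.7%). Over all alternative settings, those that leave out a library among them, 9 of the 22 calls and 6 of the 16 were lost at least once, those of *Atp6v1g1*, *Atp6v0d1*, *Fnip2*, *Lamtor1*, *Lamtor4* and *Slc38a9* with VLDL-sized, of *Atp6ap2*, *Fnip1* and *Rragc* with CHYL-sized, and of *Atp6v0e*, *Lamtor3* and *Castor2* with both, at adjusted p values up to 0.27 and 0.16.

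**Figure D1:**
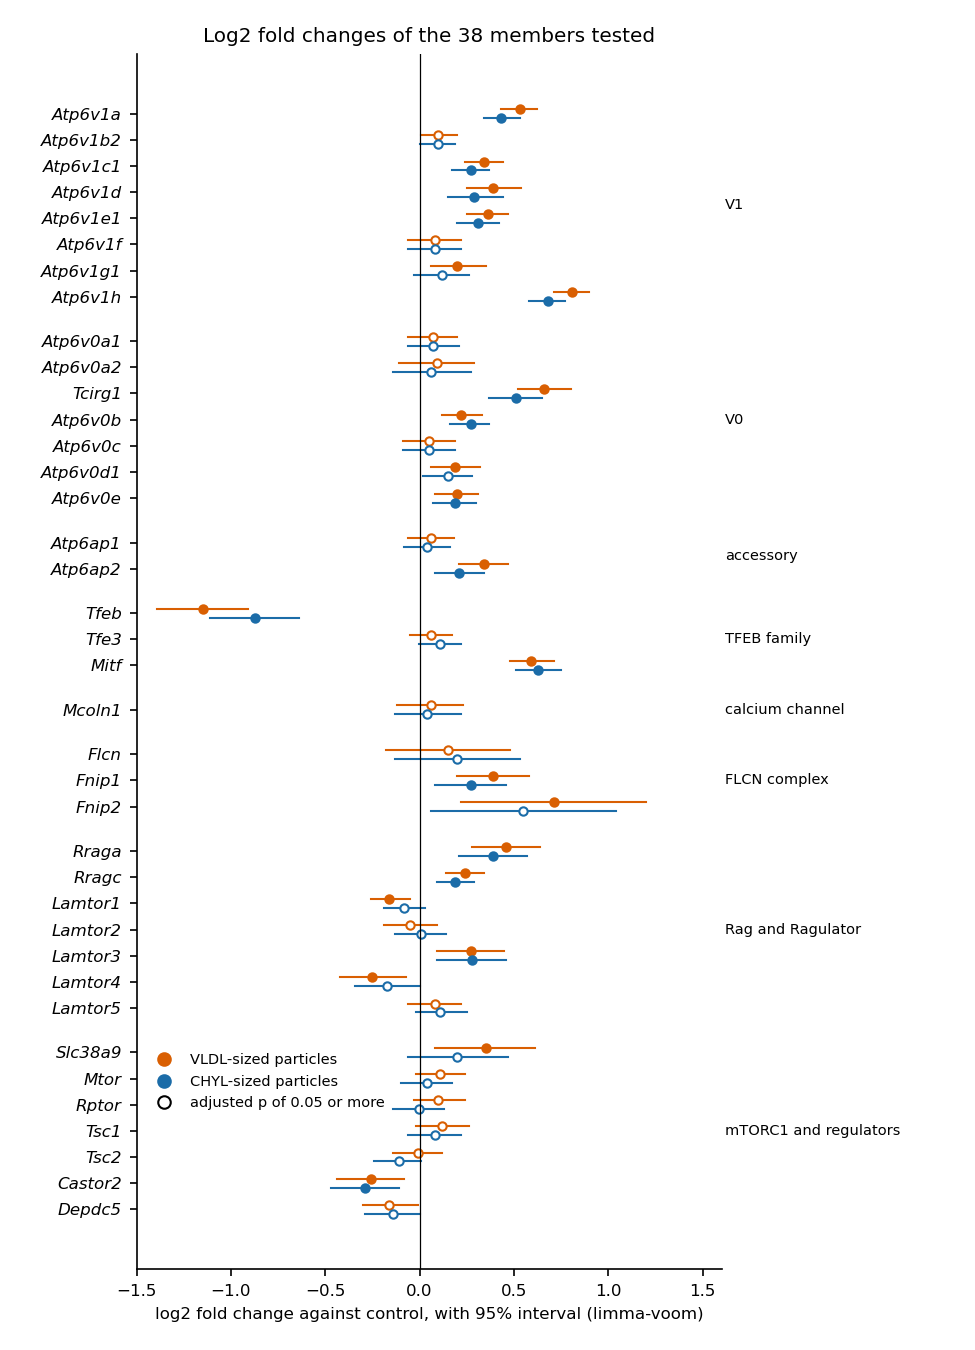
Log2 fold change against control (horizontal axis) of the 38 tested genes, by role, with 95% intervals from limma-voom, for VLDL-sized (orange) and CHYL-sized (blue) particles. Filled points passed an adjusted p of 0.05. All 17 tested V-ATPase genes lie to the right of 0, which with scaling by library size alone held for 12 and 13 of them, while *Tfeb* lies farthest to the left, at -1.15 and -0.87.

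TFEB and MITF bind an E-box with flanking bases, so the promoters of the set were searched for it. A promoter of 300 bases, 250 before the start and 50 after it, was held in the RefSeq table for GRCm38.p6 for 33 of the 40 genes. *Atp6v1h*, *Atp6v1b2*, *Atp6v1c1*, *Atp6v1g1*, *Atp6v0a2*, *Atp6v0d2* and *Lamtor3* had no entry. The letters TCACGTG, on either strand, occurred in 9 of the 33 (27.3%) and in 4.29% of all 27025 genes in the table. These 9 were the only ones of the set with the shorter core CACGTG, which it contains and which 8.09% of all genes held. The longer palindrome of the CLEAR element, the core with a pair of flanking bases on each side, was in 0 of the 33 and in 0.37% of all genes. The core letters of the antioxidant response element, TGACNNNGC, occurred in 5 of the 33 (15.2%) and in 14% of all genes. The 5 were *Atp6v0a1*, *Atp6v1a*, *Fnip2*, *Lamtor5* and *Mitf*. In the 250 bases before the start alone, TCACGTG was found in 7 of the 33 (21.2%), against 3.58% of all genes. A gene was counted if any of its promoters held the letters. A match describes the letters of this window only.

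The 30 bases around these matches are shown for 4 genes that rose with both particles, for 2 Ragulator genes that fell with VLDL-sized particles and for *Mcoln1*, which passed no test. Each is read 5′ to 3′ along the strand of its gene, with the TCACGTG match, or its reverse complement CACGTGA, in capitals, and with both where they overlap. The *Mcoln1* stretch overlaps an annotated exon, and this promoter holds another match farther from the start.
Atp6v1a, chr16:44139373-44139402, minus strand: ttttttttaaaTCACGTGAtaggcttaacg
Atp6v0b, chr4:117887339-117887368, minus strand: ggTCACGTGgggtcggcgcaTCACGTGcgc
Fnip1, chr11:54438093-54438122, plus strand: cagtttgctgcCACGTGAtacggctcgtcg
Rragc, chr4:123917310-123917339, plus strand: gtgattccgggCACGTGAtagtaccactta
Lamtor1, chr7:101905757-101905786, plus strand: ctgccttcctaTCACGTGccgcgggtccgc
Lamtor4, chr5:138255358-138255387, plus strand: ttaaCACGTGAacagctttTCACGTGtaaa
Mcoln1, chr8:3500462-3500491, plus strand: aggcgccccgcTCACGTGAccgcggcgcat

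The match in *Atp6v1a* lay 125 to 132 bases before the start, that in *Rragc* 106 to 112 bases and that in *Fnip1* 69 to 75 bases before it. *Atp6v0d1* and *Atp6v0e* held the letters TCACGTGA at or beside their start site. Of the 9 genes with the letters, 6 rose, 2 fell and 1 was not called with VLDL-sized particles. Of the 23 tested genes whose promoters lacked them, 8 rose, 2 fell and 13 were not called (over all genes 17.8% rose and 17.9% fell). With CHYL-sized particles 5 of the 9 rose and 4 were not called. Of the 23 others 6 rose, 2 fell and 15 were not called (over all genes 12.7% rose and 13% fell). Among the 9, *Atp6v0d1*, *Atp6v0e*, *Lamtor1* and *Lamtor4* with VLDL-sized particles lost their calls in some alternative. So did *Atp6v0e*, *Fnip1* and *Rragc* with CHYL-sized particles. Among the others, *Fnip2*, *Slc38a9* and *Castor2* with VLDL-sized and *Atp6ap2* and *Castor2* with CHYL-sized particles did so. Whether the letters bear on the calls was not tested. *Tfeb*, *Mitf* and *Tcirg1*, which had larger absolute log2 fold changes than any of the 9, had no such letters in the windows searched.

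*Tfeb*, which encodes the best-known activator of lysosomal genes, fell with both particles. It lies at chr17:47737030-47792419 on the plus strand of GRCm38. Its level was 33.4, 33.7 and 35.9 cpm in the 3 control libraries. It was 17.3, 16.6 and 12.8 cpm with VLDL-sized particles, and 18.8, 20.9 and 16.7 cpm with CHYL-sized particles. All 6 treated libraries were below all 3 control libraries, and the library of replicate 3 was the lowest of each treated group. The log2 fold change was -1.15 with an SE of 0.11 for VLDL-sized particles (adjusted p = 2.5e-05), and -0.87 with an SE of 0.11 for CHYL-sized particles (adjusted p = 0.00019). Within the numbered pairs the log2 ratio to control was -0.93, -1.0 and -1.45 for VLDL-sized and -0.82, -0.68 and -1.08 for CHYL-sized particles.

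*Mitf*, the family member that directs melanocyte and osteoclast genes and is also active in macrophages, went the other way. It lies at chr6:97807052-98021349 on the plus strand. Control libraries had 31.7, 31.7 and 31 cpm, those with VLDL-sized particles 47.6, 49 and 46 cpm, and those with CHYL-sized particles 50, 47.3 and 49.2 cpm. The control libraries were within 1 cpm of each other and far below all 6 treated libraries. The log2 fold change was 0.59 with an SE of 0.05 for VLDL-sized (adjusted p = 1.6e-05) and 0.63 with an SE of 0.05 for CHYL-sized particles (adjusted p = 1.7e-05).

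*Tfe3*, the close relative of TFEB that mTORC1 controls in the same way, passed neither test. Its level was 76.5, 76.9 and 83.2 cpm in control, 84.4, 80 and 82.3 cpm with VLDL-sized and 83.6, 85.1 and 86.3 cpm with CHYL-sized particles. The third control library lay among the VLDL-sized libraries, and just under the lowest CHYL-sized library. The log2 fold changes were 0.06 (95% interval -0.05 to 0.17, adjusted p = 0.37) and 0.11 (95% interval -0.00049 to 0.22, adjusted p = 0.14), and the second passed only with a batch term for replicate 3 (adjusted p = 0.048).

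Per kilobase of the main transcript, *Tfe3* was the most abundant of these 3 genes in every group. *Tfeb* made up 32.9% ± 0.098 (SD, n = 3) of the 3 genes in control, 16.3% ± 2.03 with VLDL-sized and 18.6% ± 1.84 with CHYL-sized particles. *Mitf* made up 14.2% ± 0.68, 23.4% ± 0.73 and 22.7% ± 0.888 in the same order, and so went from the least abundant of the 3 to second place. *Tfe3* made up 52.9% ± 0.594, 60.3% ± 2.04 and 58.8% ± 1.29. The rank of *Mitf* over *Tfeb* held in every treated library. When the length of all exons joined was used in place of the main transcript, *Mitf* still overtook *Tfeb*, with 39.8% against 14.2% for VLDL-sized particles, from 25.9% against 30.8% in control.

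**Figure D2:**
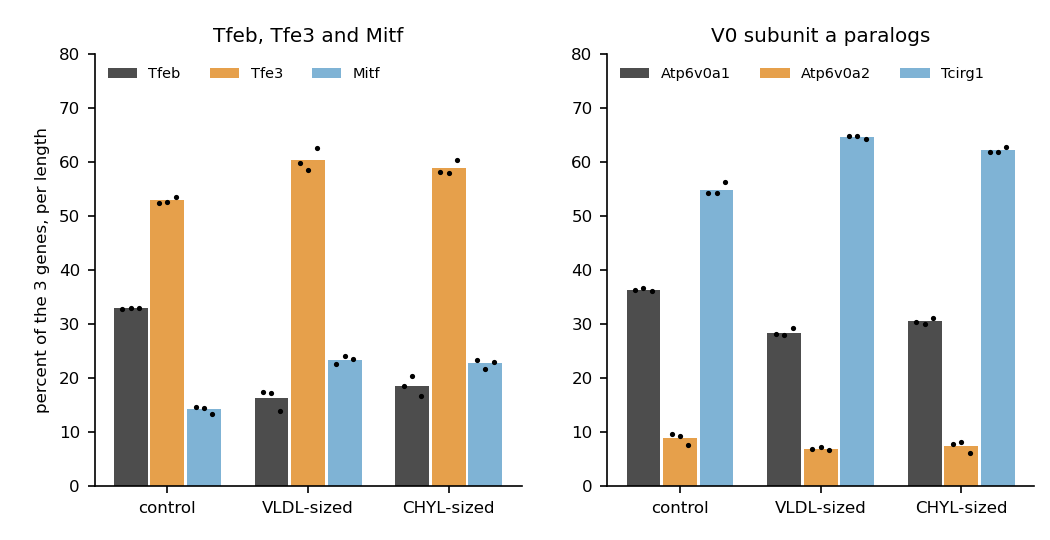
Share of each paralog (vertical axis, percent of the 3 genes in cpm per kilobase of the main transcript) by group, for the TFEB family (left) and for subunit a of the V0 sector (right). Bars are means of 3 libraries and points are libraries; the bars of *Tfeb* drop from 32.9% to 16.3% and 18.6%, and those of *Tcirg1* go from 54.9% to 64.7% and 62.2%.

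In the V1 sector, which holds the catalytic and regulatory subunits, 6 of 8 genes rose with VLDL-sized particles and 5 of 8 with CHYL-sized particles. Over all genes 17.8% and 12.7% rose. None of the 8 fell, where 17.9% and 13% of all genes did. The sector's median log2 fold change was 0.35 and 0.28. Summed over the 8 genes, the level was 1780 ± 27.3 cpm (SD, n = 3) in control, 2253 ± 21.8 cpm with VLDL-sized and 2159 ± 35.6 cpm with CHYL-sized particles. The lowest treated library, at 2123 cpm, exceeded the highest control library, at 1803 cpm. With scaling by library size alone 5 of the 8 rose with each particle and none fell, where 11.9% and 8.45% of all genes rose.

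*Atp6v1h*, whose product is the regulatory subunit that couples V1 to V0, had the largest rise of all 38 genes with VLDL-sized particles. It lies at chr1:5070018-5162529 on the plus strand. Its level was 120, 123 and 124 cpm in control, 209, 212 and 220 cpm with VLDL-sized and 192, 193 and 200 cpm with CHYL-sized particles. No library of one group fell within the range of another, with VLDL-sized on top. The log2 fold change was 0.81 with an SE of 0.04 for VLDL-sized (adjusted p = 5.5e-07) and 0.68 with an SE of 0.04 for CHYL-sized particles (adjusted p = 2.7e-06), and the ratio within the numbered pairs was 0.78 to 0.83 and 0.65 to 0.69 on the log2 scale.

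*Atp6v1a*, the catalytic subunit that binds ATP, lies at chr16:44085402-44139705 on the minus strand. It had 459, 479 and 475 cpm in control, 675, 690 and 670 cpm with VLDL-sized and 653, 625 and 628 cpm with CHYL-sized particles. The 3 groups did not overlap. It rose by 0.53 on the log2 scale with an SE of 0.04 for VLDL-sized (adjusted p = 7.9e-06) and by 0.43 with an SE of 0.04 for CHYL-sized particles (adjusted p = 5.1e-05).

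Among the other V1 genes, *Atp6v1c1*, *Atp6v1d* and *Atp6v1e1*, which encode subunits of the stalks and the central shaft, rose with both particles. Their log2 fold changes were 0.34 to 0.39 with VLDL-sized and 0.27 to 0.31 with CHYL-sized particles. *Atp6v1g1*, a stalk subunit, rose by 0.20 with VLDL-sized particles (adjusted p = 0.035) and had a log2 fold change of 0.12 with CHYL-sized particles (adjusted p = 0.23). *Atp6v1b2*, the partner of the catalytic subunit in the V1 head, had 488 to 514 cpm in control and 535 to 548 cpm in the 6 treated libraries. Its log2 fold change of 0.10 passed neither test (adjusted p = 0.075 and 0.12), but in TMM-normalized cpm the treated libraries did not overlap with control. With the replicate number as a block it was called with VLDL-sized particles (adjusted p = 0.024). Over all settings its log2 fold change was 0.01 to 0.12 and 0.02 to 0.11, at adjusted p values up to 0.87 and 0.83. *Atp6v1f*, a small subunit of the shaft, had a log2 fold change of 0.08 in both comparisons (adjusted p = 0.38 and 0.40).

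In the V0 sector 4 of the 7 tested genes rose with VLDL-sized and 3 of 7 with CHYL-sized particles, with a median log2 fold change of 0.19 and 0.15. Over all genes 17.8% and 12.7% rose. None of the 7 fell, where 17.9% and 13% of all genes did. The level summed over all 8 genes was 1761 ± 72.4 cpm (SD, n = 3) in control, 1997 ± 87.2 cpm with VLDL-sized and 1961 ± 48.6 cpm with CHYL-sized particles. The highest control library, at 1835 cpm, was below the lowest treated library, at 1923 cpm. This gap depends in part on TMM, whose factors were 1.021 to 1.052 in control and 0.9639 to 0.9949 in the treated libraries. *Atp6v0c*, which was not called, gave 850, 878 and 878 cpm of the 3 sums. With scaling by library size alone 2 of the 7 rose with each particle, where 11.9% and 8.45% of all genes rose. By that scaling 3 of the 7 had a log2 fold change under 0 in each comparison.

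*Tcirg1*, the a3 isoform of the proton-carrying subunit a, which marks the pumps of osteoclasts and of macrophage lysosomes, led the V0 genes. It lies at chr19:3896050-3907133 on the minus strand. It had 205, 209 and 240 cpm in control, 358, 329 and 345 cpm with VLDL-sized and 312, 302 and 313 cpm with CHYL-sized particles. The 3 groups did not overlap, and the third control library was the highest of its group. The log2 fold change was 0.66 with an SE of 0.06 for VLDL-sized (adjusted p = 2.3e-05) and 0.51 with an SE of 0.06 for CHYL-sized particles (adjusted p = 0.00023).

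The other 2 isoforms of subunit a passed no test. *Atp6v0a1* had log2 fold changes of 0.07 in both comparisons and *Atp6v0a2* of 0.09 and 0.06. Per kilobase, *Tcirg1* therefore made up 54.9% ± 1.21 (SD, n = 3) of the 3 isoforms in control, 64.7% ± 0.43 with VLDL-sized and 62.2% ± 0.482 with CHYL-sized particles. *Atp6v0a1* went from 36.3% ± 0.244 to 28.4% ± 0.705 and 30.5% ± 0.565. The share of *Tcirg1* in each treated library, 61.9% or more, was above the highest control library, 56.3%.

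The remaining V0 genes moved little. *Atp6v0b*, a subunit of the proteolipid ring, rose by 0.22 and 0.27 on the log2 scale (adjusted p = 0.0035 and 0.0019). *Atp6v0e* rose by 0.20 and 0.19 (adjusted p = 0.013 and 0.022), and *Atp6v0d1*, which joins V0 to the shaft, rose by 0.19 with VLDL-sized particles (adjusted p = 0.026) and had 0.15 with CHYL-sized particles (adjusted p = 0.09). *Atp6v0c*, the main ring subunit, had the highest level per length of all the pump's genes, 718 ± 46.5 cpm per kilobase in control, 742 ± 41.6 with VLDL-sized and 742 ± 34.2 with CHYL-sized particles. Its log2 fold change was 0.05 in both comparisons (adjusted p = 0.59 and 0.62). *Atp6v0d2*, the isoform of subunit d known from osteoclasts, had 0 to 4 counts in each library and could not be tested, where 3 counts correspond to 0.133 cpm.

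**Figure D3:**
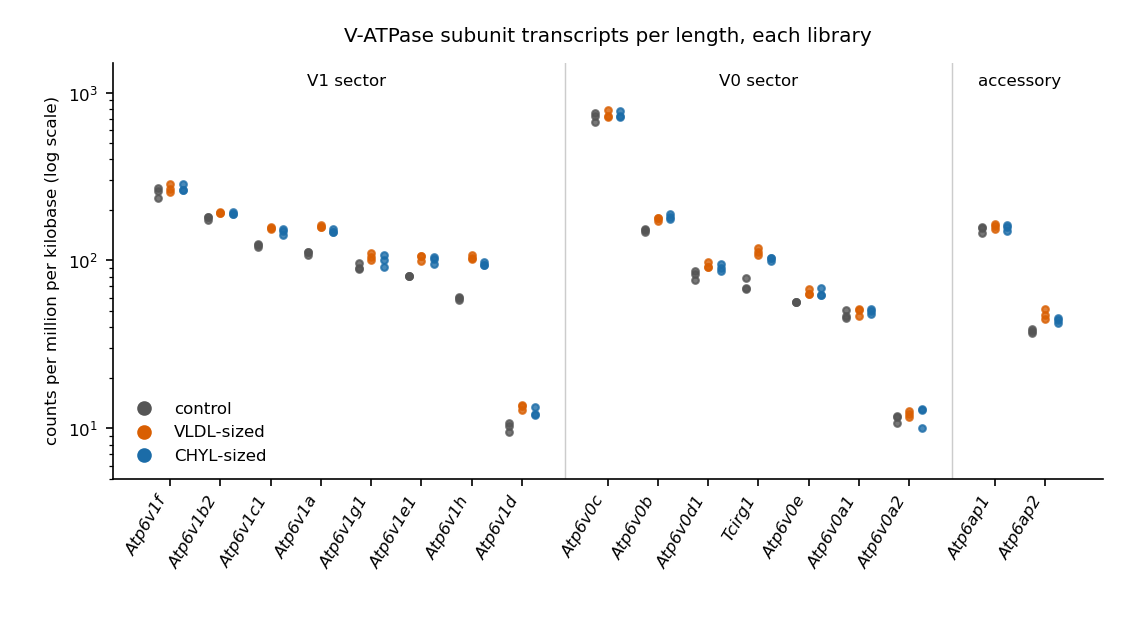
Level of the 17 tested V-ATPase genes (vertical axis, cpm per kilobase of the main transcript, log scale) in each of the 9 libraries, with genes ordered by their control mean within each sector. The treated libraries of *Atp6v1h* and *Tcirg1* sit clear of control, at 104 and 113 cpm per kilobase with VLDL-sized particles from 59.6 and 71.6, while those of *Atp6v0c* overlap with control.

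Of the accessory subunits, *Atp6ap2*, also known as the prorenin receptor, rose by 0.34 with VLDL-sized particles (adjusted p = 0.0012) and by 0.21 with CHYL-sized particles (adjusted p = 0.025). *Atp6ap1*, which takes part in assembly of the pump, had log2 fold changes of 0.06 and 0.04 (adjusted p = 0.41 and 0.66). Over the whole pump, 11 of 17 tested genes rose with VLDL-sized and 9 of 17 with CHYL-sized particles, where 17.8% and 12.7% of all genes rose. None of the 17 fell, where 17.9% and 13% of all genes did. All 17 had a log2 fold change above 0 in both comparisons, against 12 and 13 of the 17 with scaling by library size alone. By that scaling 8 and 7 rose, where 11.9% and 8.45% of all genes did.

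*Atp6v0c*, *Atp6v1f*, *Atp6v1g1*, *Lamtor1*, *Lamtor3* and *Lamtor5* shared 18.7% to 35.2% of their 31-base stretches with transcripts of other genes on the same strand, so reads may have been split between copies and their values are uncertain. The other genes of the set shared at most 8.33% on the same strand. On the opposite strand *Atp6v0a2*, *Rragc* and *Tsc2* shared 11.5%, 9.25% and 9.05% with other genes.

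*Mcoln1* encodes the calcium channel through which the lysosome activates calcineurin and so TFEB. It had 46.6, 45.6 and 44.7 cpm in control, 52.3, 48.9 and 41.7 cpm with VLDL-sized and 46.2, 49.9 and 45.0 cpm with CHYL-sized particles. The groups overlapped. The log2 fold changes were 0.06 (95% interval -0.12 to 0.23, adjusted p = 0.63) and 0.04 (95% interval -0.13 to 0.22, adjusted p = 0.74).

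The folliculin complex, in which FLCN pairs with FNIP1 or FNIP2, switches on RagC and RagD and so lets mTORC1 reach TFEB. *Fnip2*, at chr3:79455974-79567796 on the minus strand, had 236, 247 and 440 cpm in control. It had 446, 435 and 574 cpm with VLDL-sized and 398, 376 and 536 cpm with CHYL-sized particles. Replicate 3 was the highest library of every group, and the third control library lay within the range of both treated groups. The log2 fold change was 0.71 with an SE of 0.22 for VLDL-sized particles (adjusted p = 0.029) and 0.55 with an SE of 0.22 for CHYL-sized particles (adjusted p = 0.096).

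Within the numbered pairs *Fnip2* was higher in all 3, by 0.92, 0.82 and 0.38 on the log2 scale with VLDL-sized and by 0.75, 0.61 and 0.29 with CHYL-sized particles. With the replicate number as a block the log2 fold change for VLDL-sized particles was 0.7 (adjusted p = 2e-05). Without the third control library the log2 fold changes were 1.0 (adjusted p = 0.00081) and 0.84 (adjusted p = 0.0034), and without all 3 libraries of replicate 3 they were 0.87 (adjusted p = 3.7e-09) and 0.68 (adjusted p = 7.8e-08). The call for VLDL-sized particles was lost without replicate 1 or replicate 3 of the VLDL-sized group (adjusted p = 0.052 and 0.09), without replicate 1 or replicate 2 of control (adjusted p = 0.11 and 0.1) and in DESeq2 (log2 fold change 0.66, adjusted p = 0.086).

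*Fnip1* rose by 0.39 with VLDL-sized particles (adjusted p = 0.0049) and by 0.27 with CHYL-sized particles (adjusted p = 0.044), and the second call was lost in 3 of 11 other settings and in 4 of 6 fits that left out 1 library, at adjusted p values up to 0.15. Its CHYL-sized libraries overlapped with control. *Flcn* had 46.1, 45.6 and 63.2 cpm in control, 55.0, 49.7 and 66.3 cpm with VLDL-sized and 51.7, 56.3 and 69.2 cpm with CHYL-sized particles. Replicate 3 was again the highest in every group, and the groups overlapped. The log2 fold changes were 0.15 (adjusted p = 0.48) and 0.20 (adjusted p = 0.37), and with the replicate number as a block the first was 0.15 (adjusted p = 0.046).

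**Figure D4:**
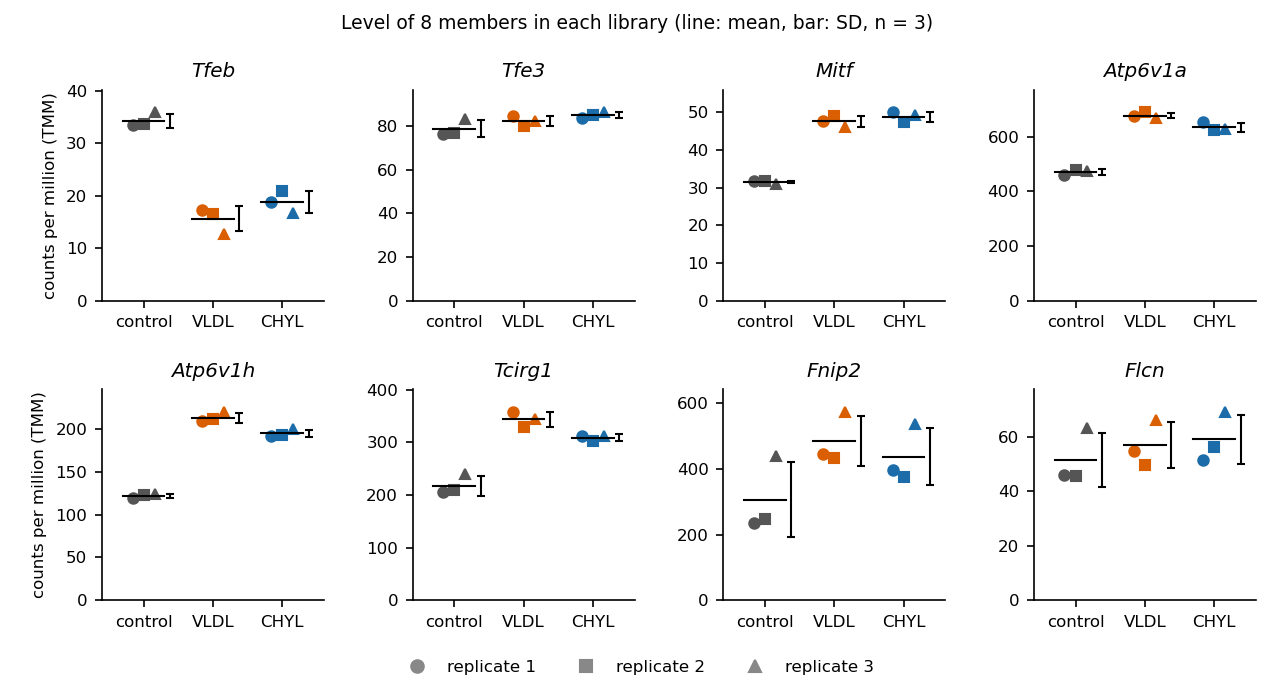
Level (vertical axis, TMM-normalized cpm) of 8 genes in each library, by group, with symbols for the replicate number, a line at the mean and a bar for the SD. *Tfeb* is lower and *Mitf*, *Atp6v1a*, *Atp6v1h* and *Tcirg1* are higher in all 6 treated libraries than in all control libraries, *Tfe3* stays between 76.5 and 86.3 cpm, and replicate 3 (triangles) is the highest library of each group for *Fnip2* and *Flcn*.

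The Rag GTPases, which work as pairs of RagA or RagB with RagC or RagD, were represented by 3 genes. *Rraga* had 65.9 to 83.0 cpm in control, 95.1 to 101 cpm with VLDL-sized and 90.2 to 101 cpm with CHYL-sized particles, without overlap with control. It rose by 0.46 with an SE of 0.08 for VLDL-sized (adjusted p = 0.0015) and by 0.39 with an SE of 0.08 for CHYL-sized particles (adjusted p = 0.0055). *Rragc* rose by 0.24 and 0.19 (adjusted p = 0.0019 and 0.0095). *Rragd*, a direct TFEB target in other cells, had 0 to 4 counts in each library and could not be tested.

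The Ragulator is the pentamer that anchors the Rag GTPases to the lysosome, and its 5 genes did not move together. *Lamtor3* rose by 0.27 and 0.28 (adjusted p = 0.027 and 0.032). *Lamtor4* fell by 0.25 on the log2 scale with VLDL-sized particles (adjusted p = 0.031), from 34.2 to 36.0 cpm in control to 27.5 to 32.3 cpm, and had -0.17 with CHYL-sized particles (adjusted p = 0.14). *Lamtor1*, the lipid-anchored member, fell by 0.16 with VLDL-sized particles (adjusted p = 0.028) and had -0.08 with CHYL-sized particles (adjusted p = 0.25). The fall of *Lamtor1* was no longer called when any 1 of the 6 libraries of that comparison was left out. *Lamtor2* and *Lamtor5* had log2 fold changes of -0.05 to 0.11 and passed no test.

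For the core of mTORC1, neither of the genes in the set passed a test. *Mtor*, the kinase, had 60.4, 64.5 and 56.3 cpm in control, 65.5, 65.9 and 64.0 cpm with VLDL-sized and 65.0, 60.2 and 60.3 cpm with CHYL-sized particles, with overlapping groups. Its log2 fold changes were 0.11 (95% interval -0.02 to 0.24, adjusted p = 0.18) and 0.04 (95% interval -0.10 to 0.17, adjusted p = 0.72). *Rptor*, which encodes the subunit raptor that the Rag GTPases bind, had 81.6, 86.5 and 86.3 cpm in control, 90.1, 87.7 and 95.5 cpm with VLDL-sized and 85.0, 78.7 and 90.5 cpm with CHYL-sized particles. All VLDL-sized libraries were above control, whereas the CHYL-sized libraries spanned it. Its log2 fold changes were 0.10 (95% interval -0.03 to 0.24, adjusted p = 0.21) and -0.0035 (95% interval -0.14 to 0.13, adjusted p = 0.98).

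Of the sensors and brakes of mTORC1, *Slc38a9*, the arginine transporter of the lysosome, had 16 to 19.4 cpm in control, 19.2 to 24.9 cpm with VLDL-sized and 17.8 to 21.7 cpm with CHYL-sized particles. It rose by 0.35 with VLDL-sized particles (adjusted p = 0.043) and had 0.20 with CHYL-sized particles (adjusted p = 0.26). *Castor2*, a relative of the cytosolic arginine sensor, had 47.2 to 51.8 cpm in control and 37.3 to 44.4 cpm in the 6 treated libraries, without overlap. It fell by 0.26 on the log2 scale with VLDL-sized (adjusted p = 0.03) and by 0.29 with CHYL-sized particles (adjusted p = 0.023). *Tsc1* and *Tsc2*, the complex that turns off Rheb, and *Depdc5*, the GATOR1 subunit that turns off RagA, had log2 fold changes from -0.16 to 0.12 and passed no test. The libraries of *Depdc5* did not overlap with control for either particle, and with VLDL-sized particles it was called lower under 3 other settings (lowest adjusted p = 0.016).

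Between VLDL-sized and CHYL-sized particles 0 of the 38 genes passed an adjusted p of 0.05 in limma-voom, where 0% of all 12637 genes did. At an unadjusted p under 0.05 there were 5 genes, *Atp6v1a*, *Atp6v1h*, *Tcirg1*, *Atp6ap2* and *Tfeb*, and 6.43% of all genes. Both edgeR and DESeq2 gave 0 genes after adjustment and 4 before it. In the fit blocked by replicate number, 0 of the set were called after adjustment, against 0.593% of all genes higher and 0.459% lower. Before adjustment that fit gave 9 of the set. The unadjusted share of all genes was taken for the main fit only, so the 4 and the 9 have no matching share. The lowest adjusted p was 0.63, for *Atp6v1h*, at a log2 difference of 0.13 (95% interval 0.03 to 0.22). *Tfeb* had a log2 difference of -0.28 between VLDL-sized and CHYL-sized particles (95% interval -0.54 to -0.01, adjusted p = 0.77), and the groups overlapped. The libraries of the 2 particles did not overlap for *Atp6v1a*, *Atp6v1h* and *Tcirg1*, 3 of the 38 or 7.89%, against 11.3% of all genes. For 33 of the 38 genes both ends of the 95% interval were within 0.3 on the log2 scale, and the exceptions were *Tfeb*, *Flcn*, *Fnip1*, *Fnip2* and *Slc38a9*. Without the 3 libraries of replicate 3, *Fnip2* was called, at a log2 difference of 0.19 (adjusted p = 0.049).

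The other genes of the pathway, 54 in 5 lists, gave a median log2 fold change of 0.02 with VLDL-sized and -0.02 with CHYL-sized particles. Of the 47 that could be tested, 16 rose and 8 fell with VLDL-sized particles (against 17.8% and 17.9% of all genes). With CHYL-sized particles 12 rose and 6 fell (against 12.7% and 13% of all genes). The 16 and the 12 both count *Tfec*, a further TFEB family gene, which passed the filter only through the treated groups and so had to differ. Of 10 partners of mTORC1, Rheb and TSC, 3 rose and 1 fell with VLDL-sized particles (against 17.8% and 17.9% of all genes). With CHYL-sized particles 2 rose and 0 fell (against 12.7% and 13% of all genes). Over all settings 0 to 3 of these partners fell with each particle. *Mlst8*, which encodes a core subunit of mTORC1, had log2 fold changes of -0.29 (95% interval -0.54 to -0.04, adjusted p = 0.07) and -0.25 (adjusted p = 0.14). *Ddit4*, the stress-induced inhibitor that acts through TSC, rose by 1.58 with VLDL-sized particles (adjusted p = 0.00054) and had 0.78 with CHYL-sized particles, which was not called (adjusted p = 0.05). *Deptor*, an inhibitory subunit of mTORC1, fell by 0.73 on the log2 scale with VLDL-sized particles (adjusted p = 0.024) and had -0.48 with CHYL-sized particles (adjusted p = 0.12).

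Of 15 genes of GATOR, KICSTOR and the amino acid sensors, 4 rose and 3 fell with VLDL-sized particles (against 17.8% and 17.9% of all genes). With CHYL-sized particles 2 rose and 2 fell (against 12.7% and 13% of all genes), counts that were 1 to 2 and 2 to 4 over all settings. Within the sestrin family of leucine sensors, *Sesn2* rose by 1.5 and 0.89 (adjusted p = 0.0012 and 0.037), while *Sesn1* fell by 1.34 and 1.20 on the log2 scale (adjusted p = 0.0041 and 0.0092). The CHYL-sized libraries of *Sesn2* overlapped with control. *Sesn3* had log2 fold changes of -0.02 and -0.09 and was not called (adjusted p = 0.92 and 0.68). *Castor1*, the cytosolic arginine sensor, rose by 0.83 with VLDL-sized particles (adjusted p = 0.0069) and had 0.43 with CHYL-sized particles (adjusted p = 0.15). *Kptn*, a KICSTOR subunit, fell by 0.50 and 0.55 (adjusted p = 0.01 and 0.009). Among the 7 tested substrates of mTORC1, 4 rose and 2 fell with each particle. Over all genes 17.8% rose and 17.9% fell with VLDL-sized, and 12.7% rose and 13% fell with CHYL-sized particles. Over all settings 3 to 4 substrates rose with VLDL-sized and 2 to 4 with CHYL-sized particles, and 1 to 2 fell with each. *Lpin1*, which encodes a phosphatidate phosphatase, fell by 1.75 with each (adjusted p = 1.9e-06 and 2.7e-06), *Eif4ebp1*, a brake on translation, rose by 1.03 and 0.84 (adjusted p = 0.00041 and 0.0023), and *Ulk1*, the kinase that starts autophagy, rose by 0.62 and 0.43 (adjusted p = 0.00051 and 0.0074).

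Of 24 tested genes known as TFEB or MITF targets that are not in the set, 9 rose and 3 fell with VLDL-sized particles (against 17.8% and 17.9% of all genes). With CHYL-sized particles 8 rose and 2 fell (against 12.7% and 13% of all genes). Over all settings 5 to 14 and 5 to 11 rose, and 1 to 3 fell with each, with the lowest counts of risen genes under scaling by library size alone. Their median log2 fold change was 0.15 and 0.08. The 2 largest rises were in autophagy genes that other factors also control, *Sqstm1*, which encodes the cargo receptor p62 (1.94 and 1.72, adjusted p = 1.5e-06 and 4.8e-06), and *Gabarapl1* (1.6 and 1.4, adjusted p = 1.8e-07 and 6e-07). Among lysosomal hydrolases *Gla*, the galactosidase, rose by 0.67 and 0.56 (adjusted p = 1.3e-05 and 7.6e-05), whereas *Sgsh*, a sulfatase, fell by 0.65 and 0.53 on the log2 scale (adjusted p = 3.2e-05 and 0.0002).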

How the data were processed

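RNA sequencing of 9 libraries was analysed, with groups and replicate numbers from the sample labels. The authors deposited an estimated count for each gene, obtained with Salmon 0.14.1 on GENCODE transcripts of GRCm38.p6 and tximport. The methods state a scaling of the counts by transcript length and library size. Among deposited entries over 10, 58.3% were whole numbers within 1e-06, and the values were used as unscaled, which the sources used here do not settle. Symbols were matched for 54346 of 54432 identifiers. Gene coordinates and lengths came from the M21 release of GENCODE, which is not the one the authors used.

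A gene was kept if 3 or more libraries had over 10 counts of it. Tests used limma 3.58.1, TMM normalization from edgeR 4.0.16, voom weights and Benjamini-Hochberg adjustment over 12637 genes in R 4.3.3, in one model of all 9 libraries, two-sided and without a block. Levels are TMM-normalized cpm, and tested genes of the set had mean counts of 455 to 19645. For edgeR's quasi-likelihood test and DESeq2 1.42.0 counts were rounded to whole numbers. The steps were tested on simulated data.

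The 40 genes, the lists of other pathway genes and markers, and the tests were chosen with earlier results of these data known. Values of each library are given for genes called with an absolute log2 fold change of at least 0.5 and for *Tfeb*, *Tfe3*, *Mitf*, *Mcoln1*, *Flcn*, *Mtor* and *Rptor*. Of the other lists, at most 4 genes called with that change are named in each.

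Same-numbered libraries of control and VLDL-sized particles shared deviations from the means of their groups. The correlations over genes were 0.138, 0.132 and 0.293, all above 0.1, so that the numbers were taken to pair these groups. The main fit has no block and leaves this pairing out. Its adjusted p values thus keep the spread between replicate numbers, and the fit with a replicate block is given as an alternative. Control 1 and VLDL-sized 2, with unlike numbers, also correlated at 0.116, so this limit alone does not set the pairs apart. For same-numbered libraries of control and CHYL-sized particles the values were 0.124, 0.0684 and 0.338, and for the 2 particles 0.0286, 0.117 and 0.357. There the libraries of replicate 3 shared deviations. Those of replicates 1 and 2 did so less than some with unlike numbers. Control 1 and CHYL-sized 2 correlated at 0.155, and VLDL-sized 1 and CHYL-sized 2 at 0.179. Alternatives were edgeR, DESeq2, 3 other scalings, no filter, a filter of 50 counts, fits of only the groups compared, a replicate block, a batch term for replicate 3, the removal of replicate 3 and of each library in turn, exon-union lengths, and promoters before the start only.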

Additional observations from a re-analysis of the deposited data

How the results depend on the processing

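Of the 22 genes called with VLDL-sized particles, 13 (12 higher, 1 lower) kept their call and direction in all 17 alternative fits, and of the 16 called with CHYL-sized particles, 10 (9 higher, 1 lower) did so. The 9 and 6 others had absolute log2 fold changes of 0.16 to 0.71 and of 0.19 to 0.29. Called genes did not change sign in any alternative. Without the low-count filter 1 gene was lower with VLDL-sized particles. With library size alone the median fell to 0.04 and 0.03, with 9 genes higher and 6 lower for CHYL-sized particles. Without the 3 libraries of replicate 3, 1 gene was higher with VLDL-sized than CHYL-sized particles. The cause of these changes was not tested. With libraries left out (each in turn, or the 3 of replicate 3), 12 to 19 genes were higher and 1 to 5 lower with VLDL-sized, and 10 to 17 higher and 1 to 2 lower with CHYL-sized particles, with medians of 0.12 to 0.16 and 0.11 to 0.14, and 0 to 1 higher and 0 lower between the particles. The lower count with VLDL-sized particles was 1 without its replicate 3 or without control replicate 1 or 2, and 2 without its replicate 1.

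With the replicate block, 20 genes were higher and 4 lower with VLDL-sized particles and 19 and 3 with CHYL-sized particles, and 0 differed between the particles. For VLDL-sized particles the pairing by number added *Atp6v1b2* and *Flcn* and changed no other call. For CHYL-sized particles, where not every sample correlated best with its own number, it added *Atp6v1b2* (adjusted p = 0.042), *Atp6v0d1* (0.018), *Flcn* (0.014), *Fnip2* (0.00022), *Slc38a9* (0.031) and *Lamtor4* (0.042).

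Some genes that were not called, all with absolute log2 fold changes of 0.09 or less, changed sign. With library size alone these were, for VLDL-sized particles, *Atp6v1f* -0.01, *Atp6v0a1* -0.02, *Atp6v0a2* -0.01, *Atp6v0c* -0.05, *Atp6ap1* -0.03, *Tfe3* -0.03, *Mcoln1* -0.04 and *Lamtor5* -0.01, and for CHYL-sized particles *Atp6v0a1* -0.01, *Atp6v0a2* -0.02, *Atp6v0c* -0.03, *Atp6ap1* -0.04, *Mcoln1* -0.04, *Lamtor2* -0.07 and *Mtor* -0.04. Without the 3 libraries of replicate 3, *Tsc2* gave 0.01 for VLDL-sized and *Lamtor2* -0.02 for CHYL-sized particles. With libraries left out, the values ran from -0.0036 to 0.11 for *Atp6v0c*, from -0.01 to 0.15 for *Mcoln1* and from -0.03 to 0.03 for *Tsc2* with VLDL-sized particles, and with CHYL-sized particles from -0.0031 to 0.1 for *Atp6v0c*, -8.6e-05 to 0.07 for *Atp6ap1*, -0.00021 to 0.07 for *Mcoln1*, -0.04 to 0.05 for *Lamtor2*, -0.01 to 0.08 for *Mtor* and -0.05 to 0.05 for *Rptor*.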

Other observations

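The pump's genes outside the set were other isoforms and assembly factors. *Atp6v1b1*, *Atp6v1c2*, *Atp6v1e2*, *Atp6v1g3* and *Atp6v0a4*, known from kidney, testis and other specialised tissues, had at most 2 counts in any library and could not be tested. *Atp6v0e2*, the second isoform of subunit e, had 65.4 ± 0.739 cpm (SD, n = 3) in control and log2 fold changes of 0.02 and -0.03 (adjusted p = 0.73 and 0.74). Of the 11 tested genes of this list, 4 rose and 2 fell with VLDL-sized particles (against 17.8% and 17.9% of all genes). With CHYL-sized particles 3 rose and 2 fell (against 12.7% and 13% of all genes). Over all settings these counts were 4 to 6 and 2, and 3 to 6 and 0 to 2. The median log2 fold change of the list was 0.19 and 0.15. *Ncoa7*, whose product can bind the pump, rose by 0.52 and 0.49 (adjusted p = 0.00085 and 0.0021). *Dmxl1*, of the complex that helps V1 and V0 join, rose by 0.52 with VLDL-sized particles (adjusted p = 0.0061) and had 0.27 with CHYL-sized particles (adjusted p = 0.13). The 2 genes that fell were *Rogdi* (-0.43 and -0.35, adjusted p = 0.0063 and 0.022) and *Ccdc115* (-0.27 and -0.18, adjusted p = 0.004 and 0.037), so the list went both ways.

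*Tfec*, the fourth member of the TFEB family, was near the limit of detection in control, with 0.168, 0.421 and 0.343 cpm, and reached 1.73, 1.26 and 1.5 cpm with VLDL-sized and 1.64, 1.22 and 1.69 cpm with CHYL-sized particles. All treated libraries were above control. No library held more than 38 counts of this gene and no control library more than 10, so that it passed the filter only through the groups where it was high and had to differ, and its levels are given without a test. The calcineurin genes *Ppp3ca*, *Ppp3cb* and *Ppp3r1*, whose product removes phosphate from TFEB, had log2 fold changes of -0.09 to 0.03 and passed no test, so that *Tfec* was the 1 gene of the 4 in this list counted as risen with each particle.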
